A study of Mus musculus with 6 samples.

Results

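The genes described are 33 genes of glucose uptake, glycolysis, its fructose 2,6-bisphosphate switch, glycogen metabolism and the pyruvate dehydrogenase kinases. They were taken from the deposited table by exact match of the gene name. All 33 names were found, on 34 of 55487 gene rows, because Aldoa stands on 2 rows. RNA was sequenced from macrophages that had been grown out of bone marrow. The donors were female BALB/c mice of wild-type genotype, aged 6 to 12 weeks. All cells were cultured for 8 days with 20% medium conditioned by L929 fibroblasts, a source of macrophage growth factor, and then received IL-4 and IL-13, 10 ng/mL of each, for 24 hours. These cytokines drive alternative (M2) activation. One group of 3 libraries (NP) was then exposed for 24 hours to nanoparticles of poly(lactide-co-glycolide), PLGA, at 200 µg/mL. The sample titles call this treatment PEMA, which the sources used here do not explain. The other group of 3 libraries (PBS) received the vehicle, phosphate-buffered saline. Whether the 3 samples of a group came from different cultures or mice is not stated. The p-values therefore reflect the spread among these 6 samples alone, and part or all of that spread may be technical.

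Glucose enters a macrophage through carriers of the GLUT family and is trapped by hexokinase as glucose 6-phosphate, from which it can flow into glycolysis, glycogen or the pentose phosphate pathway. Phosphofructokinase commits the sugar to glycolysis and is switched on by fructose 2,6-bisphosphate, which the PFKFB enzymes make and break down. Inflammatory activation of macrophages is known for raising glycolysis, while M2 cells are known for using mitochondrial oxidation more.

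Total counts were 69450411, 61057868 and 60702163 in NP 1 to 3, against 56265590, 41974957 and 51079771 in PBS 1 to 3. Levels are given as CPM, the count relative to the scaled library size, and 3 counts corresponded to between 0.0432 and 0.0715 CPM of these totals. The 8 macrophage markers examined summed to between 21900 and 24200 TPM in NP libraries and between 27100 and 28200 TPM in PBS libraries. TPM here is the count per exonic length, scaled to the same total in each library. Of these markers 6 were lower in NP, 1 (Cd68) was higher and 1 was not called. The 6 markers of IL-4 and IL-13 activation summed to between 998 and 1230 TPM in NP and between 1860 and 2250 TPM in PBS, with 4 lower in NP and 2 not called. Markers of fibroblasts, neutrophils, dendritic cells, T cells, B cells, erythroid cells and mast cells each summed to under 5 TPM in every library. Neutrophil markers (5 genes, 2 tested, 1 higher) summed to 3.63 to 4.72 TPM in NP and 2.66 to 3.19 TPM in PBS. Dendritic cell markers (5 genes, 3 tested, 1 higher, Ccr7) summed to 1.71 to 2.09 TPM in NP and 0.78 to 1.65 TPM in PBS. Ccr7 had 27, 25 and 33 counts in NP 1 to 3, against 0, 0 and 1 in PBS 1 to 3 (limma voom adjusted p = 5.33e-05). Zbtb46 and Xcr1 were not called. Fibroblast markers (5 genes, 3 tested, 1 higher, Pdgfra) summed to 0.33 to 0.463 TPM in NP and 0.251 to 0.568 TPM in PBS. Ly6g, Cd8a, Hbb-bs, Cpa3, Mcpt8 and Ms4a2 had 0 counts throughout. In bulk RNA a change in the proportion of cells and a change in RNA per cell cannot be told apart, and the part of the marker shift in the results below was not tested. PBS 2 and PBS 3 stood apart: the 1768 genes of olfactory and vomeronasal receptors summed to 9.62, 10.3 and 11.8 CPM in NP 1 to 3, and to 12.4, 136 and 150 CPM in PBS 1 to 3.

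Across the 33 genes, 18 (54.5%) were higher in NP libraries and 6 (18.2%) were lower, while 9 were not called. A gene was called when limma voom, fitted over 14478 genes, gave a Benjamini-Hochberg adjusted p under 0.05. Over all 14478 genes 41.2% were called, 19.8% higher and 21.4% lower. Glucose genes are abundant, and 30 of the 33 averaged at least 10 CPM. Among the 8889 genes at or above that level, 26.5% were higher and 25.4% were lower in NP. The share of glucose genes that were higher lay above both backgrounds and the share that were lower did not. The genes were chosen with earlier results of these data known, so the shares describe this list and are no test of it. Leaving out any single library ended calls among the 33 genes, and each such fit has fewer samples. The genes called, 24 with all libraries, were 23 without NP 1, 23 without NP 2 and 17 without NP 3. They were 21 without PBS 1, 20 without PBS 2 and 18 without PBS 3. Over all genes, 3092 were lower and 2872 higher with all libraries, and 1975 were lower and 2102 higher without NP 3. Of the 33 genes, 13 were higher and 4 were lower without NP 3. In 26 of the 33 genes (78.8%) all NP libraries lay on one side of all PBS libraries, against 53.3% of all genes.

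Changes were small. The median log2 fold change (NP minus PBS) of the 33 genes was 0.17, against 0 over all tested genes, whose quartiles were -0.19 and 0.15. None of the 33 reached a called 2-fold change, against 4.03% of all tested genes. The 33 genes together held 0.719%, 0.74% and 0.724% of all TPM in NP 1 to 3, against 0.63%, 0.613% and 0.616% in PBS 1 to 3. All 3 NP libraries stood above all 3 PBS libraries in this sum. With PBS 1 alone for PBS, 14 of the 33 genes were called, 9 of them higher in NP.

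**Figure D1:**
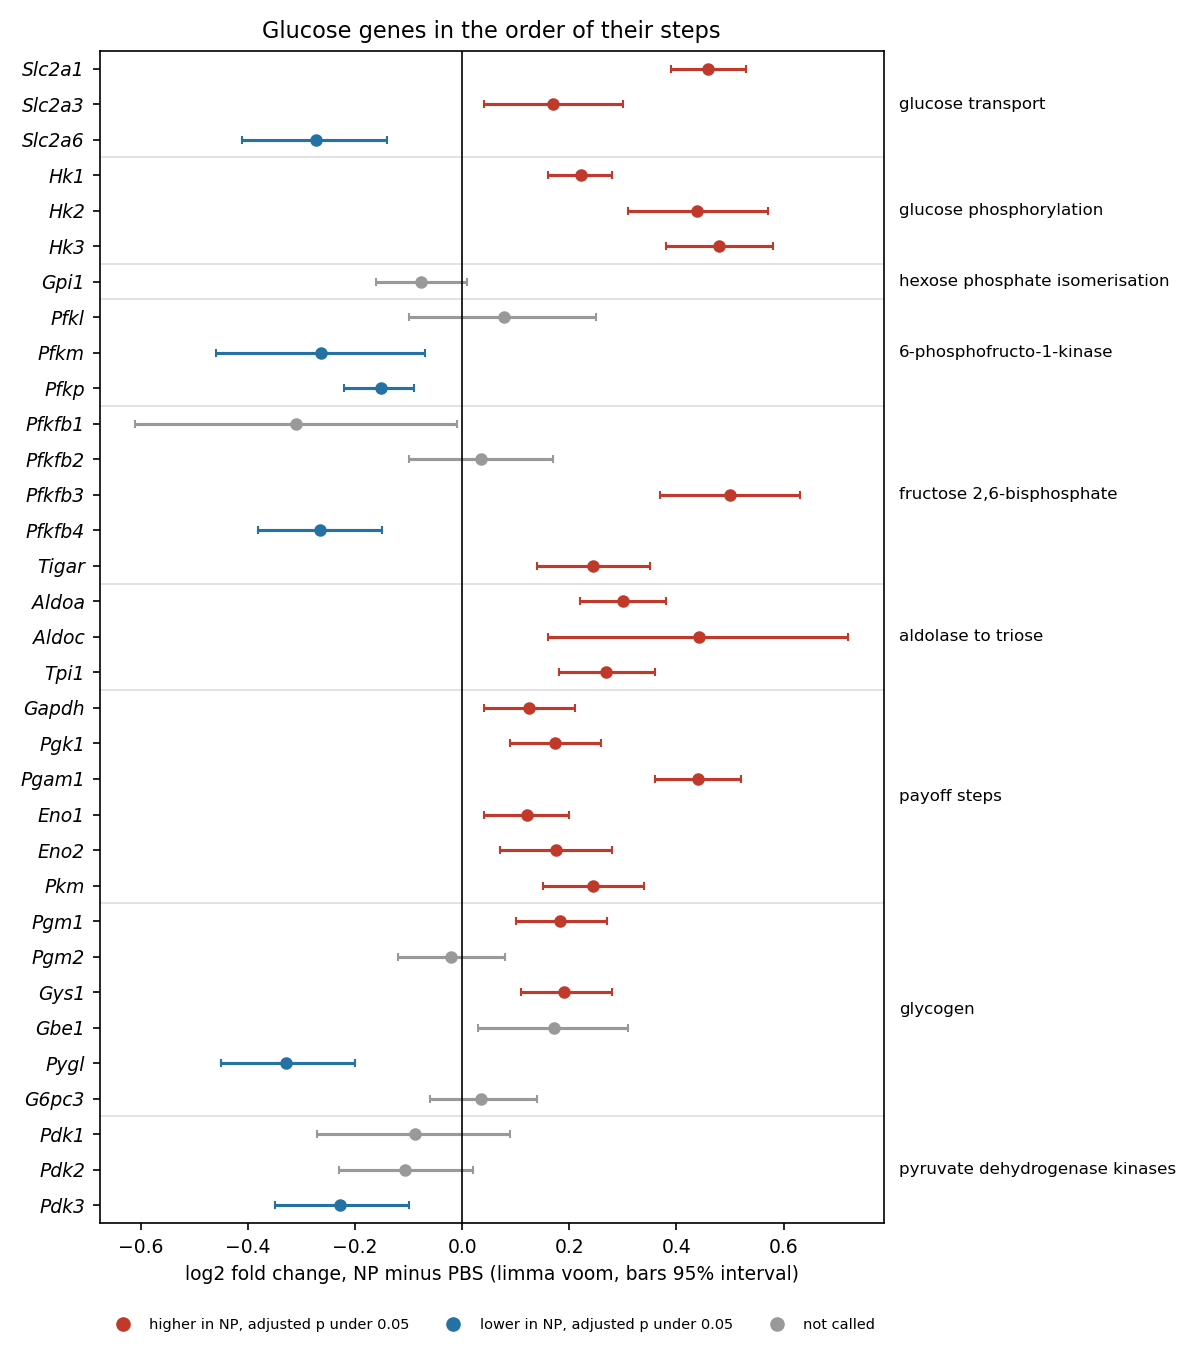
Log2 fold change of each of the 33 genes, NP minus PBS, with its 95% interval from limma voom, in the order of the pathway steps. The 3 hexokinase genes and all 9 genes from aldolase to pyruvate kinase lie to the right of 0, while the intervals of Slc2a6, Pfkm, Pfkp, Pfkfb4, Pygl and Pdk3 lie to the left of it.

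At 2 of the steps, isoforms of 1 enzyme or carrier moved in opposite directions, and the promoters of these 4 genes show what sequence lies before each start. Slc2a1 and Pfkfb3 were higher in NP, and Slc2a6 and Pfkfb4 were lower. Each window runs from 250 bases before to 50 bases after a transcription start in RefSeq (build GRCm38.p6), is written 5′ to 3′ on the strand of the gene, and has in capitals each copy of the hypoxia response core, ACGTG or GCGTG, on either strand (read as CACGT or CACGC on the other).
Slc2a1: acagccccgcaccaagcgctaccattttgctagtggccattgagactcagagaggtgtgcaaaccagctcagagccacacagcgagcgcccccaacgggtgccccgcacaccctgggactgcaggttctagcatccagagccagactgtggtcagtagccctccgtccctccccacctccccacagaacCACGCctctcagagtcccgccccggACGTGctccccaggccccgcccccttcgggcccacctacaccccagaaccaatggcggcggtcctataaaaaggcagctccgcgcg
Slc2a6: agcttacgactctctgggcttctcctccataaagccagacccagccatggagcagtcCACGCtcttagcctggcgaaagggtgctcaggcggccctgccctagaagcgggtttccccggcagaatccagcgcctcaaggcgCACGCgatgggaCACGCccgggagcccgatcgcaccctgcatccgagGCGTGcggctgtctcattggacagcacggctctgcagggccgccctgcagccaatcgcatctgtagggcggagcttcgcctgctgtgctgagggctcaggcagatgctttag
Pfkfb3: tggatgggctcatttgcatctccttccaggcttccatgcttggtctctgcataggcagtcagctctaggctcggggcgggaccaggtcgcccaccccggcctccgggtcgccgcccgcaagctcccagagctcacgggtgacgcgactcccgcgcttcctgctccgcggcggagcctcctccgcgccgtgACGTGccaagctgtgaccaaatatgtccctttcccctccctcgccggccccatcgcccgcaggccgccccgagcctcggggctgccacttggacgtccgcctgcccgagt
Pfkfb4: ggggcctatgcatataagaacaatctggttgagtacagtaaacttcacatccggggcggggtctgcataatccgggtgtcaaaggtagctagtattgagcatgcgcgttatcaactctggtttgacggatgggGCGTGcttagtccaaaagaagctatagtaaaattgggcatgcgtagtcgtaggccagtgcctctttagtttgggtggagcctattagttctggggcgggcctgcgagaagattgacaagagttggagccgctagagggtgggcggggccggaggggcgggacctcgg
The windows are chr4:119108495-119108794 (plus strand) for Slc2a1, chr2:27027949-27028248 (minus) for Slc2a6, chr2:11553880-11554179 (minus) for Pfkfb3 and chr9:108991652-108991951 (plus) for Pfkfb4. The Slc2a1 window held 2 cores, the Slc2a6 window 4, and the Pfkfb3 and Pfkfb4 windows 1 each. A second Pfkfb3 start (chr2:11502041-11502340) had 4. The core thus stood before genes of both directions.

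RefSeq windows matched 32 of the 33 genes, with 50 windows in all. A core lay in 35 of the 50 windows (70.0%), against 43.8% of 32851 windows of all genes. The glucose windows were also richer in G and C, with a median of 60.0% against 52.7%, and 69.2% of all windows at or above 60.0% held a core. By direction, 13 of 17 genes that were higher in NP, 6 of 6 that were lower and 7 of 9 that were not called had a core in at least 1 window. The E-box CACGTG, which contains an ACGTG on each strand, lay in 5 of the 50 windows, against 7.15% of all windows. A match is a description of the letters and says nothing on whether a factor binds there.

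Glucose transport moved in opposite directions by isoform. Slc2a1 (GLUT1, the carrier of basal glucose uptake) rose by 37.5% in NP, and Slc2a6 (GLUT6, found on lysosomal membranes in macrophages) fell to 0.828 of its PBS level. Slc2a1 had 107.7, 108.6 and 105.5 CPM in NP 1 to 3, against 79.61, 77.26 and 77.11 CPM in PBS 1 to 3. Every NP library lay well above every PBS library, and the libraries of a group differed little. The log2 fold change was 0.46 ± 0.031 (SE, n = 3 each; 95% interval 0.39 to 0.53; limma voom adjusted p = 1.41e-05). Slc2a6 had 104.1, 122.4 and 113.8 CPM in NP, against 141.5, 127.7 and 141.0 CPM in PBS. The groups did not overlap, but NP 2 and PBS 2 came close to each other. Its log2 fold change was -0.27 ± 0.061 (limma voom adjusted p = 0.00614), and over 17 alternative settings (scaling, filter, test, replicate block and left-out libraries) the adjusted p ran from 0.000211 to 0.0517, the last without NP 3. Slc2a3 (GLUT3, a carrier of high glucose affinity) had 16.76, 17.38 and 18.46 CPM in NP, against 15.57, 16.44 and 14.81 CPM in PBS. NP 1 and PBS 2 nearly met, and the log2 fold change was 0.17 ± 0.058 (limma voom adjusted p = 0.042). That call held in 9 of 17 alternatives, with adjusted p from 0.0069 to 0.238. Its limma voom adjusted p was 0.0622 without NP 2, 0.128 without NP 3, 0.0709 without PBS 1, 0.155 without PBS 3 and 0.0891 with a replicate block.

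Per exonic length, the balance between the carriers shifted while their sum differed by less than its spread. Slc2a1 made up 44.8% ± 1.88 of the TPM of the 3 carriers in NP libraries and 33.2% ± 1.04 in PBS libraries (SD, n = 3 each). Slc2a6 made up 51.6% ± 1.93 in NP and 63.5% ± 1.33 in PBS, and Slc2a3 3.54% ± 0.193 in NP and 3.22% ± 0.281 in PBS. The summed level was 227 ± 10.3 TPM in NP and 227 ± 8.94 TPM in PBS. The log2 ratio of Slc2a6 to Slc2a1 was -0.049, 0.173 and 0.109 in NP 1 to 3, against 0.83, 0.725 and 0.871 in PBS 1 to 3. The difference in this log2 ratio was -0.73 ± 0.079 (SE), a ratio in NP of 0.603 of that in PBS, with no overlap (exact permutation p = 0.1). With 3 libraries a group, 0.1 is the smallest two-sided p that this test can give, and the smallest value adjusted over the 19 isoform contrasts was 0.146. Slc2a3 also fell behind Slc2a1, by a difference in log2 ratio of -0.29 ± 0.068 with no overlap.

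**Figure D2:**
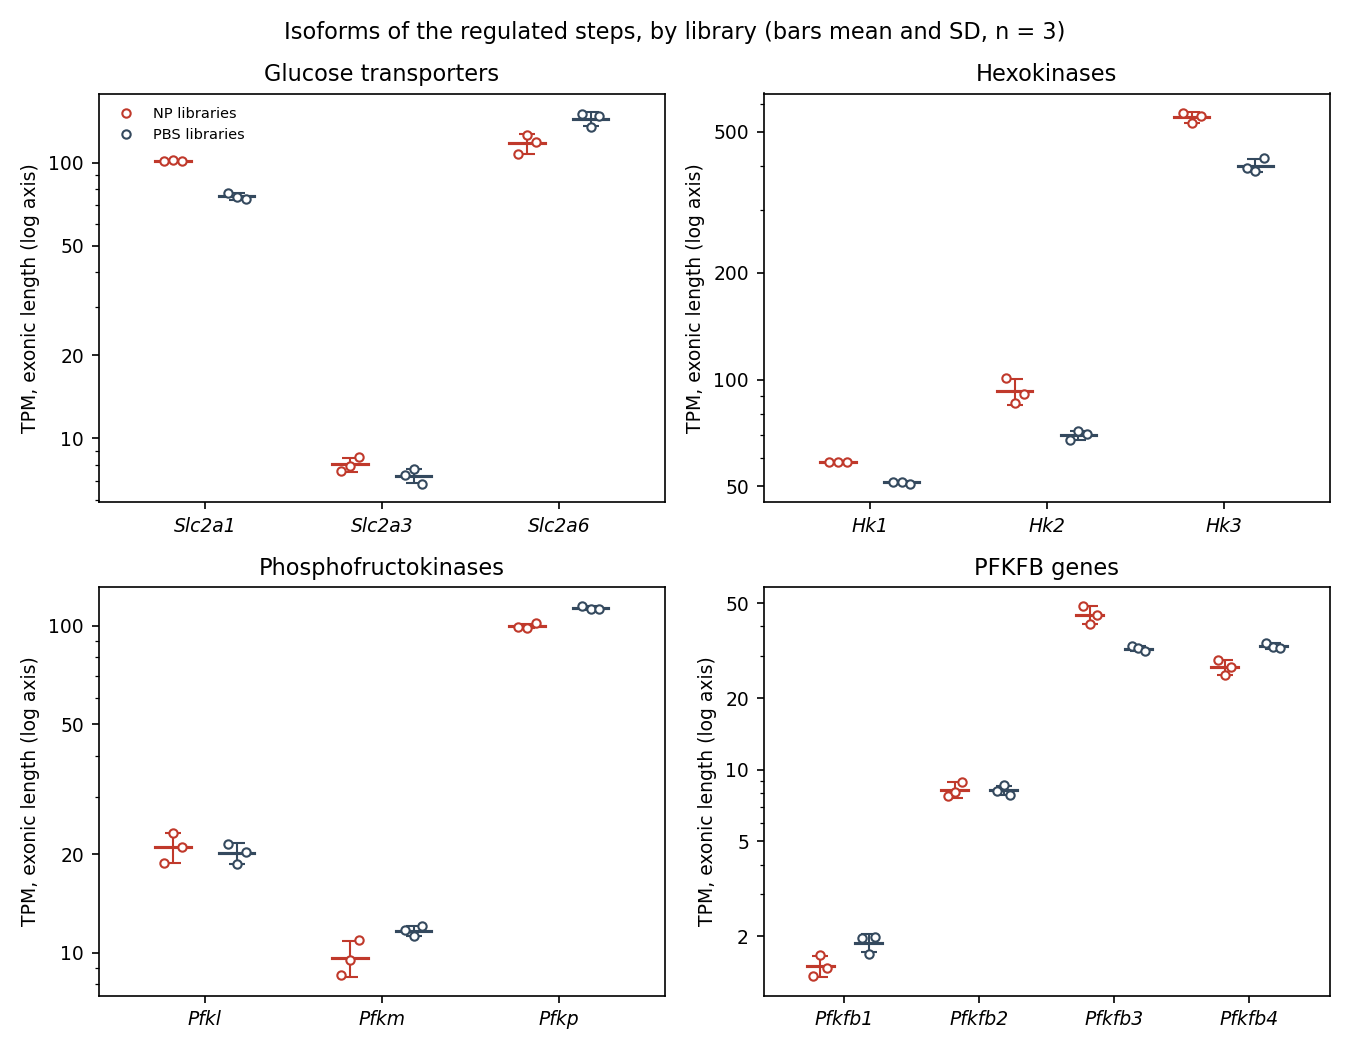
Level per exonic length (TPM, log axis) of each isoform of the glucose carriers, hexokinases, phosphofructokinases and PFKFB enzymes, with 1 point per library and bars for mean and SD (n = 3). NP libraries stand above PBS libraries for Slc2a1, Hk1, Hk2, Hk3 and Pfkfb3, and below them for Slc2a6, Pfkm, Pfkp, Pfkfb4 and Pfkfb1, the last of which was not called.

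All 3 hexokinase genes measured were higher in NP. Hexokinases phosphorylate glucose on entry: Hk1 is the widely expressed form and Hk2 the inducible one, both of which bind mitochondria, and Hk3 is a form of myeloid cells that does not carry the mitochondrial binding segment. Hk3 had 631.0, 587.0 and 604.6 CPM in NP, against 426.0, 419.6 and 461.3 CPM in PBS, a log2 fold change of 0.48 ± 0.044 (limma voom adjusted p = 5.19e-05). Hk2 had 182.9, 154.8 and 161.8 CPM in NP, against 117.7, 125.4 and 125.1 CPM in PBS, a log2 fold change of 0.44 ± 0.058 (limma voom adjusted p = 0.000362). Hk1 had 151.6, 151.4 and 148.6 CPM in NP, against 128.7, 129.3 and 129.5 CPM in PBS, a log2 fold change of 0.22 ± 0.028 (limma voom adjusted p = 0.00028). No NP library overlapped a PBS library in any of the 3 genes, NP 1 was the highest library for Hk2 and Hk3, and the 3 calls held in all 17 alternatives.

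Hk3 was by far the most abundant of the 3 per exonic length. It had 549 ± 19.5 TPM in NP and 401 ± 17.1 TPM in PBS, Hk2 had 92.7 ± 7.79 TPM in NP and 69.7 ± 2.07 TPM in PBS, and Hk1 had 58.7 ± 0.0737 TPM in NP and 51.3 ± 0.362 TPM in PBS. The neighbours in this order did not overlap in either group. The summed hexokinase level was 700 ± 26.9 TPM in NP and 522 ± 16.9 TPM in PBS. Because Hk1 changed less than the others, its share was 8.39% ± 0.329 in NP and 9.84% ± 0.38 in PBS. The difference in log2 ratio was -0.22 ± 0.0747 for Hk1 to Hk2 and 0.26 ± 0.0508 for Hk3 to Hk1, both without overlap between groups (exact permutation p = 0.1 each). For Hk3 to Hk2 it was 0.04 ± 0.0601 with overlap (exact permutation p = 0.5). The order of Hk1 and Hk2 depends on the length used: per longest transcript Hk1 held 13.9% in NP and 16.1% in PBS, and Hk2 11.9% in NP and 11.9% in PBS.

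None of the genes for the isomerase and the phosphofructokinases, which act between hexokinase and aldolase, was called higher. Gpi1, the isomerase that turns glucose 6-phosphate into fructose 6-phosphate, had 307.9, 340.9 and 320.5 CPM in NP, against 344.3, 337.6 and 339.3 CPM in PBS. NP 2 lay among the PBS libraries, and the log2 fold change of -0.08 (95% interval -0.16 to 0.01) was not called (limma voom adjusted p = 0.15), although without NP 2 it was (limma voom adjusted p = 0.0335, in a range over the alternatives of 0.0335 to 0.525).

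Of the 3 phosphofructokinase genes, 2 were lower in NP and the third was not called. Pfkp, named the platelet form, had 402.6, 399.2 and 404.9 CPM in NP, against 451.0, 441.3 and 449.0 CPM in PBS. Each group was tight and the groups lay apart, so that a log2 fold change of -0.15 ± 0.028 passed the test (limma voom adjusted p = 0.00217) and held in all 17 alternatives. Pfkm, the muscle form, had 8.617, 9.561 and 10.87 CPM in NP, against 11.5, 11.02 and 11.98 CPM in PBS. NP 3 lay just under PBS 2, and the log2 fold change was -0.26 ± 0.086 (limma voom adjusted p = 0.0346). The Pfkm call held in 8 of 17 alternatives, with adjusted p from 0.0195 to 0.214. Its limma voom adjusted p was 0.155 without NP 1, 0.0998 without NP 2, 0.102 without PBS 1, 0.0551 without PBS 2 and 0.124 without PBS 3. The log2 fold change itself shrank to -0.17 without NP 1 and to -0.15 with sample quality weights. Pfkl, the liver form, had 37.95, 46.94 and 41.74 CPM in NP, against 41.93, 36.55 and 40.54 CPM in PBS. The ranges overlapped (log2 fold change 0.08, 95% interval -0.10 to 0.25, limma voom adjusted p = 0.457).

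Pfkp was the main form per exonic length, with 76.5% ± 1.73 of the phosphofructokinase TPM in NP and 78.1% ± 0.786 in PBS. Pfkl held 16.1% ± 1.47 in NP and 13.9% ± 0.693 in PBS, and Pfkm 7.38% ± 0.742 in NP and 8.05% ± 0.223 in PBS. Only the Pfkl share was apart between the groups among these 3. Summed over the 3 genes, the level was 130.0 ± 3.6 TPM in NP and 145 ± 3.25 TPM in PBS. The difference in log2 ratio was 0.24 ± 0.105 for Pfkl to Pfkp and 0.34 ± 0.11 for Pfkl to Pfkm, without overlap (exact permutation p = 0.1 each). Pfkm to Pfkp differed by -0.10 ± 0.0983 with overlap (exact permutation p = 0.5).

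The PFKFB genes moved in opposite directions by isoform. PFKFB enzymes have a kinase and a phosphatase side, and PFKFB3 is known for the highest ratio of kinase to phosphatase activity. Pfkfb3 had 111.9, 93.38 and 100.5 CPM in NP, against 72.87, 71.96 and 71.01 CPM in PBS. All NP libraries were above all PBS libraries, with NP 1 highest, and the log2 fold change was 0.50 ± 0.059 (limma voom adjusted p = 0.000194). Pfkfb4 had 42.56, 36.92 and 39.23 CPM in NP, against 48.67, 46.96 and 47.01 CPM in PBS. Its NP libraries were all lower, with a log2 fold change of -0.27 ± 0.051 (limma voom adjusted p = 0.00284). Both calls held in all 17 alternatives. Pfkfb2 had 17.0 to 19.22 CPM in NP and 16.99 to 18.36 CPM in PBS. Pfkfb1, the least abundant of the 33 genes, had 1.662 to 2.022 CPM in NP and 1.993 to 2.377 CPM in PBS. Neither was called (limma voom adjusted p = 0.674 and 0.0943).

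The log2 ratio of Pfkfb3 to Pfkfb4 was 1.394, 1.338 and 1.358 in NP 1 to 3, against 0.582, 0.615 and 0.595 in PBS 1 to 3. The gap between the groups was 0.77 ± 0.0191 (SE), a ratio 1.7-fold higher in NP, and the libraries within a group hardly differed (exact permutation p = 0.1). NP 1 had the most of both genes among the NP libraries. Pfkfb3 held 54.9% ± 1.22 of the PFKFB TPM in NP and 42.8% ± 0.116 in PBS, and Pfkfb4 held 33.1% ± 0.138 in NP and 43.9% ± 0.395 in PBS. Per exonic length the order of the pair was opposite in the groups: 44.8 ± 4.01 TPM of Pfkfb3 against 27.0 ± 1.89 TPM of Pfkfb4 in NP, and 32.3 ± 0.726 TPM of Pfkfb3 against 33.1 ± 0.937 TPM of Pfkfb4 in PBS. The order in PBS depends on the length used: per longest transcript Pfkfb3 held 57.0% and Pfkfb4 30.5% in NP, and Pfkfb3 44.9% and Pfkfb4 40.9% in PBS. The sum of the 4 genes was 81.6 ± 5.61 TPM in NP and 75.4 ± 1.75 TPM in PBS.

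Tigar, a phosphatase that breaks down fructose 2,6-bisphosphate, was also higher in NP. It had 19.19, 19.69 and 20.24 CPM in NP, against 16.44, 16.51 and 16.93 CPM in PBS, with no overlap. The log2 fold change was 0.24 ± 0.046 (limma voom adjusted p = 0.00246), and over the alternatives its adjusted p ran from 0.000391 to 0.0581, the last with PBS 1 alone for PBS.

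**Figure D3:**
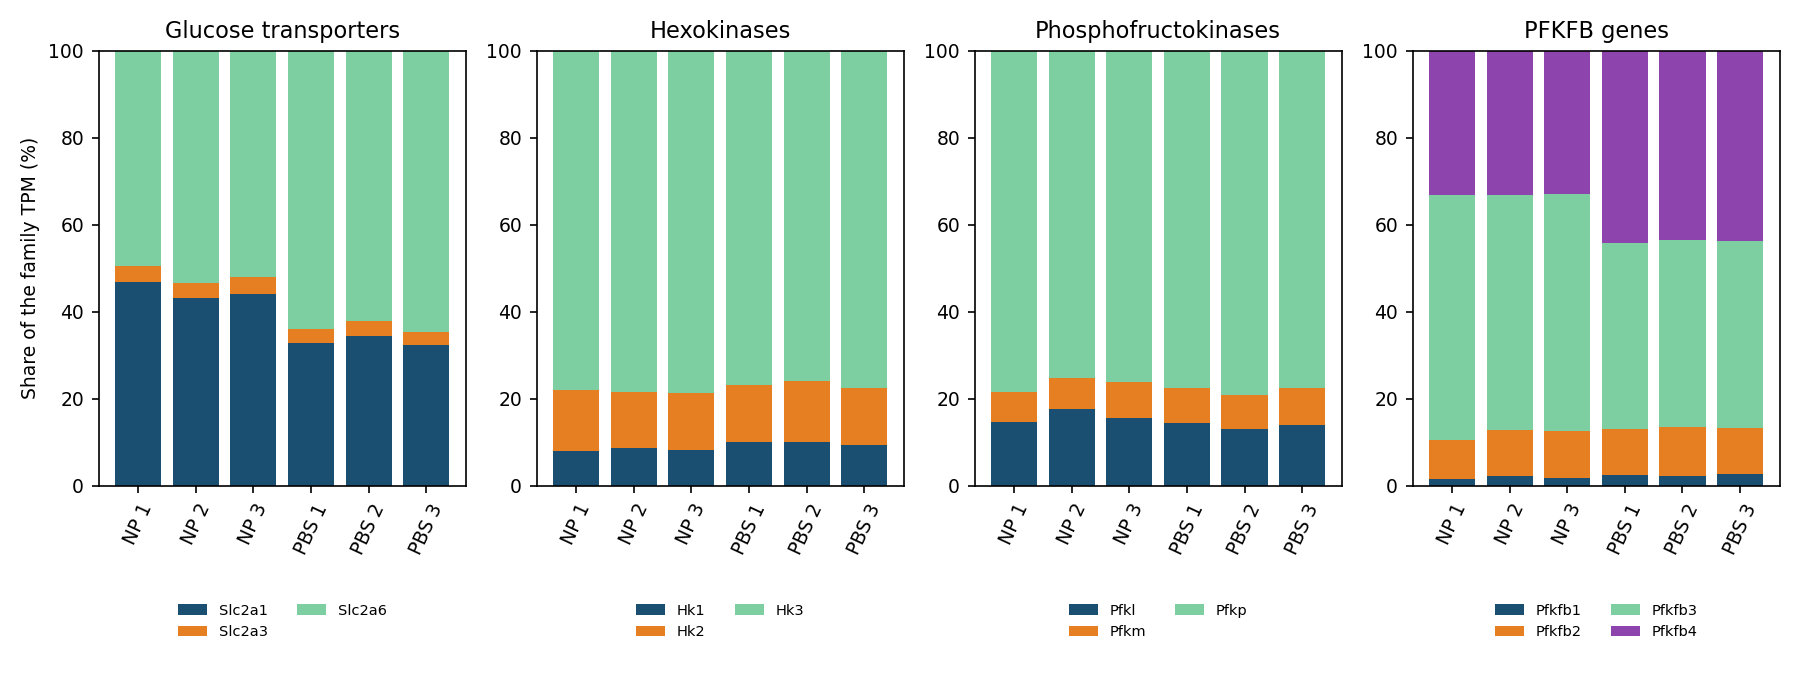
Share of each isoform in the summed TPM of its family (%, per exonic length) in each library, NP libraries left of PBS libraries. Slc2a1 takes 43.3% to 46.9% of the carriers in NP and 32.4% to 34.4% in PBS, Pfkfb3 takes 54.0% to 56.3% of the PFKFB genes in NP and 42.7% to 42.9% in PBS, and the hexokinase and phosphofructokinase shares move by a few points.

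From aldolase to pyruvate kinase, all 9 genes were higher in NP. Aldoa, the main aldolase, which splits fructose 1,6-bisphosphate into 2 trioses, had 982.8, 1048 and 1016 CPM in NP, against 846.1, 808.8 and 819.6 CPM in PBS. The groups were well apart (log2 fold change 0.30 ± 0.035, limma voom adjusted p = 0.00018). Aldoc, the brain form, made up 0.98% of the aldolase TPM in NP and 0.876% in PBS. It had 9.382, 12.86 and 11.66 CPM in NP, against 8.902, 8.042 and 7.598 CPM in PBS, so NP 1 lay close to PBS 1. Its log2 fold change was 0.44 ± 0.123 (limma voom adjusted p = 0.0176). Leaving out single libraries ended the Aldoc call in 3 cases, with limma voom adjusted p of 0.089 without NP 3, 0.0623 without PBS 2 and 0.0792 without PBS 3, in a range over the alternatives of 0.00208 to 0.292. The ratio of Aldoc to Aldoa overlapped between the groups (difference in log2 ratio 0.16 ± 0.12, exact permutation p = 0.3). The second row named Aldoa (ENSMUSG00000114515, chr7:126800790-126809108) had 0.1765, 0.3148 and 0.3804 CPM in NP and 0.2985, 0.3517 and 0.2922 CPM in PBS. It was not called (limma voom adjusted p = 0.679). Tpi1, which interconverts the trioses, had 283.4, 309.1 and 281.9 CPM in NP, against 241.6, 239.2 and 244.7 CPM in PBS, again apart (log2 fold change 0.27 ± 0.039, limma voom adjusted p = 0.000644).

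In the payoff steps, which yield ATP and NADH, the change was largest at Pgam1. Pgam1, the phosphoglycerate mutase, had 1047, 986.8 and 986.3 CPM in NP, against 737.6, 725.5 and 761.0 CPM in PBS. The gap between the groups was many times the spread within them (log2 fold change 0.44 ± 0.036, limma voom adjusted p = 3.16e-05), and the call held in all 17 alternatives. Pkm, pyruvate kinase, had 1432, 1544 and 1409 CPM in NP, against 1289, 1212 and 1202 CPM in PBS. All NP libraries were higher (log2 fold change 0.24 ± 0.044, limma voom adjusted p = 0.0019). Its M1 and M2 splice forms share this row and were not separated. Pgk1, phosphoglycerate kinase, had 383.0, 416.0 and 383.5 CPM in NP, against 349.2, 348.8 and 349.9 CPM in PBS (log2 fold change 0.17 ± 0.037, limma voom adjusted p = 0.005). Its PBS libraries were nearly equal and all lower. With PBS 1 alone for PBS the limma voom adjusted p was 0.105 for Pgk1 and 0.102 for Pkm, the highest values over the alternatives, whose lowest were 0.0021 and 0.00107.

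The remaining payoff genes, Gapdh and the enolases, also changed little. Gapdh, often used as a reference gene, had 758.3, 833.7 and 773.9 CPM in NP, against 721.9, 725.7 and 719.7 CPM in PBS. NP 2 was the highest, and no NP library fell among the PBS libraries (log2 fold change 0.13 ± 0.039, limma voom adjusted p = 0.0268). Eno1, the ubiquitous enolase, had 479.7, 520.1 and 487.0 CPM in NP, against 447.5, 464.1 and 455.1 CPM in PBS (log2 fold change 0.12 ± 0.037, limma voom adjusted p = 0.0269). Eno2, the neuronal form, had 29.85, 28.17 and 31.01 CPM in NP, against 26.94, 25.93 and 25.87 CPM in PBS (log2 fold change 0.17 ± 0.047, limma voom adjusted p = 0.0146). Eno2 held 6.42% ± 0.515 of the enolase TPM in NP and 6.18% ± 0.228 in PBS, and the log2 ratio of the pair overlapped between groups (difference 0.06 ± 0.0798, exact permutation p = 0.5). These 3 calls held without NP 1 and without NP 2, and the fold changes kept their sign in all 17 alternatives, but leaving out NP 3, PBS 2 or PBS 3 ended them. Without NP 3 the limma voom adjusted p was 0.0567 for Gapdh, 0.0544 for Eno1 and 0.0592 for Eno2. Without PBS 2 the same 3 genes had 0.076, 0.0525 and 0.0549, and without PBS 3 they had 0.0698, 0.0625 and 0.0576. Eno1 was also lost without PBS 1 (limma voom adjusted p = 0.0532). Scaling by library totals alone ended the Gapdh and Eno1 calls (limma voom adjusted p = 0.0934 and 0.0984). Over all alternatives the adjusted p ran from 0.0117 to 0.236 for Gapdh, from 0.0121 to 0.147 for Eno1 and from 0.00219 to 0.252 for Eno2.

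Several of these genes have near-identical copies in the genome between which reads can be divided. Eno1b, a copy of Eno1, held 16011, 14552 and 13652 counts in NP 1 to 3, against 12533, 9006 and 11101 in PBS 1 to 3. Pgk1-rs7, a copy of Pgk1, held 1236, 1630 and 1742 counts in NP, against 27, 971 and 1000 in PBS, so PBS 1 stood far below the other 5 libraries. Pgam1-ps2, a copy of Pgam1, held 255 to 411 counts in NP and 143 to 272 in PBS. Eno1, Pgk1 and Pgam1 levels are therefore uncertain by what was assigned to their copies. The enolase shares given above count Eno1 and Eno2 alone, without the counts of Eno1b, and are uncertain in the same way. With the counts of each copy added to its gene, the same 24 of the 33 genes were called.

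**Figure D4:**
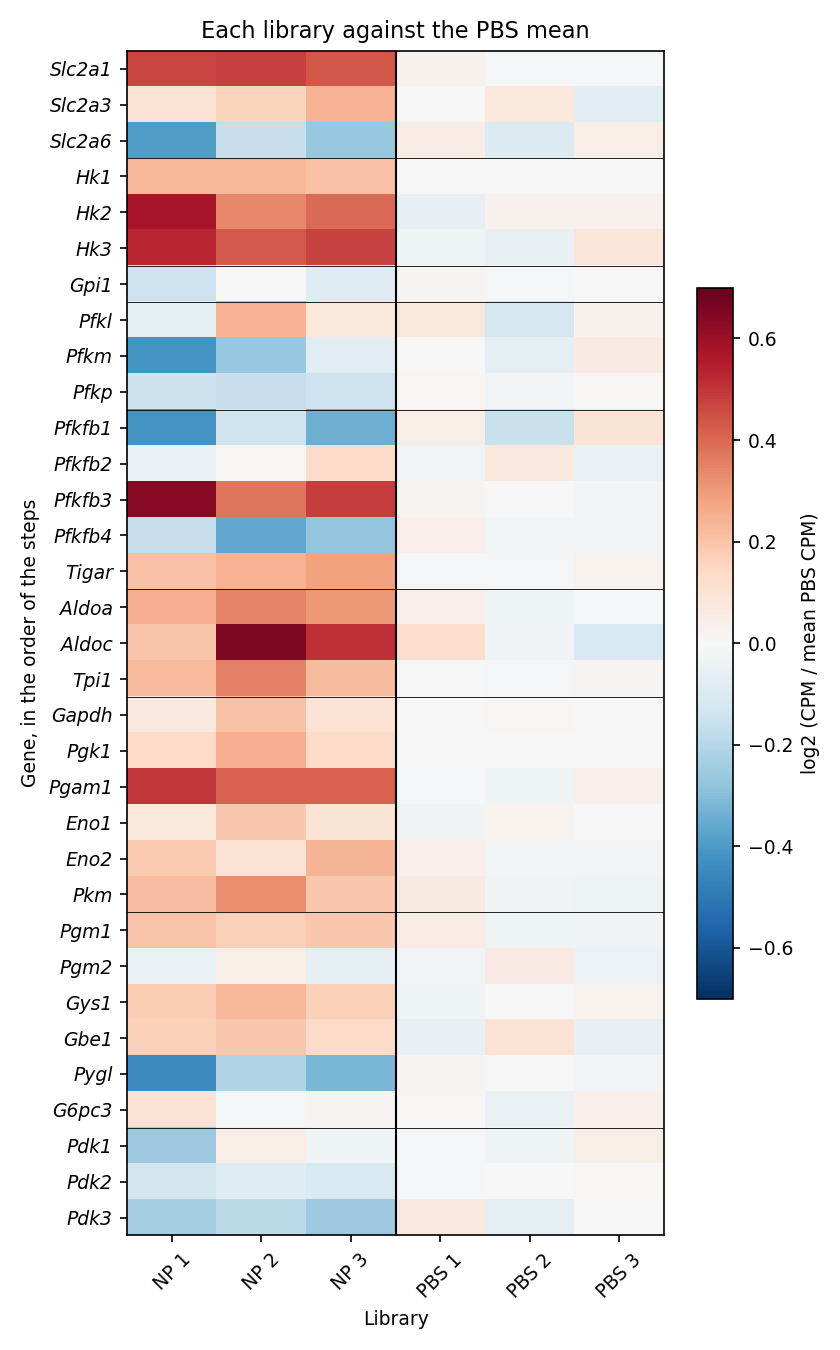
Log2 of the CPM of each library over the mean CPM of the PBS libraries, for each of the 33 genes (rows, in step order) and the 6 libraries (columns), with red above and blue below the PBS mean. NP columns are red in 9 of 9 rows from Aldoa to Pkm and in all hexokinase rows, and blue for Slc2a6, Pfkm, Pfkp, Pfkfb4, Pygl and Pdk3 in 3 of 3 NP libraries.

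Among the glycogen genes of the 33, the synthase gene Gys1 was higher in NP and the phosphorylase gene Pygl was lower. Gys1, the glycogen synthase of muscle and most other tissues, had 35.79, 37.2 and 35.56 CPM in NP, against 31.08, 31.77 and 32.26 CPM in PBS (log2 fold change 0.19 ± 0.038, limma voom adjusted p = 0.0032). Pygl, the liver-type glycogen phosphorylase, had 41.04, 48.42 and 44.82 CPM in NP, against 56.65, 56.01 and 55.27 CPM in PBS (log2 fold change -0.33 ± 0.055, limma voom adjusted p = 0.00132). Neither gene overlapped between groups, and both calls held in all 17 alternatives. The log2 ratio of Gys1 to Pygl was -0.197, -0.38 and -0.334 in NP, against -0.866, -0.818 and -0.776 in PBS. The ratio was 1.43-fold higher in NP (difference in log2 ratio 0.52 ± 0.0606, exact permutation p = 0.1), with no overlap.

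The other glycogen genes moved less. Gbe1, the branching enzyme, had 10.97, 11.15 and 10.73 CPM in NP, against 9.447, 10.48 and 9.429 CPM in PBS. The groups did not overlap, but its log2 fold change of 0.17 was not called (limma voom adjusted p = 0.0521, and 0.0372 to 0.15 over the alternatives, the lowest without PBS 2). Pgm1 (ENSMUSG00000025791, chromosome 4), which interconverts glucose 1-phosphate and glucose 6-phosphate, had 38.01, 37.17 and 37.77 CPM in NP, against 34.29, 32.47 and 32.63 CPM in PBS. All NP libraries were higher (log2 fold change 0.18 ± 0.037, limma voom adjusted p = 0.00386, and 0.00134 to 0.142 over the alternatives, the highest with PBS 1 alone for PBS). Pgm2 (ENSMUSG00000029171, chromosome 5), known in human as a mutase of phosphopentoses, had 41.96 to 45.14 CPM in NP and 42.59 to 45.74 CPM in PBS (limma voom adjusted p = 0.725). Older mouse naming exchanged these 2 gene names, so the identifiers are given. Pgm1 held 43.6% ± 1.22 of the summed TPM of the pair in NP and 40.1% ± 1.34 in PBS, and the log2 ratio differed by 0.21 ± 0.0622 without overlap (exact permutation p = 0.1). G6pc3, the widely expressed glucose 6-phosphatase, had 26.83 to 29.0 CPM in NP and 26.17 to 27.68 CPM in PBS, with overlap (log2 fold change 0.04, 95% interval -0.06 to 0.14, limma voom adjusted p = 0.557).

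Of the 3 pyruvate dehydrogenase kinase genes, which hold back the entry of pyruvate into mitochondrial oxidation, 1 was lower in NP and 2 were not called. Pdk3 had 12.94, 13.37 and 12.72 CPM in NP, against 15.91, 14.49 and 15.16 CPM in PBS. The groups did not overlap (log2 fold change -0.23 ± 0.054, limma voom adjusted p = 0.00849), and the adjusted p was 0.0526 without NP 3 and 0.0697 with no filter on low counts, in a range from 0.00176 to 0.0697. Pdk2 had 9.014, 9.296 and 9.146 CPM in NP, against 9.798, 9.848 and 9.916 CPM in PBS. Its libraries were apart as well, but the log2 fold change of -0.11 ± 0.056 was not called (limma voom adjusted p = 0.156). Pdk1 had 11.19 to 13.77 CPM in NP and 13.06 to 13.71 CPM in PBS, with overlap (limma voom adjusted p = 0.414). Pdk3 was the most abundant of the 3 per exonic length, with 16.9 ± 0.337 TPM in NP and 20.1 ± 1.02 TPM in PBS, ahead of Pdk2 with 9.62 ± 0.18 TPM in NP and 10.6 ± 0.0412 TPM in PBS, and Pdk1 with 5.42 ± 0.588 TPM in NP and 5.82 ± 0.104 TPM in PBS. The summed level was 31.9 ± 1.01 TPM in NP and 36.5 ± 1.08 TPM in PBS.

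Levels of the 33 genes ran over 3 orders of magnitude per exonic length. Pgam1 was the highest, with 1690 ± 50.1 TPM in NP and 1270 ± 22.0 TPM in PBS, followed by Aldoa with 1160 ± 40.1 TPM in NP and 961 ± 28.4 TPM in PBS. These 2 were among the 100 highest of all genes, and 9 of the 33 were among the 1000 highest. Pfkfb1 was the lowest, with 1.5 ± 0.152 TPM in NP and 1.88 ± 0.165 TPM in PBS. Higher genes were found from Slc2a3, at 8.05 ± 0.472 TPM in NP and 7.31 ± 0.431 TPM in PBS, up to Pgam1. Lower genes lay between Pfkm, at 9.65 ± 1.22 TPM in NP and 11.7 ± 0.417 TPM in PBS, and Slc2a6, at 117 ± 9.67 TPM in NP and 144 ± 8.14 TPM in PBS, and none of them was among the most abundant.

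**Figure D5:**
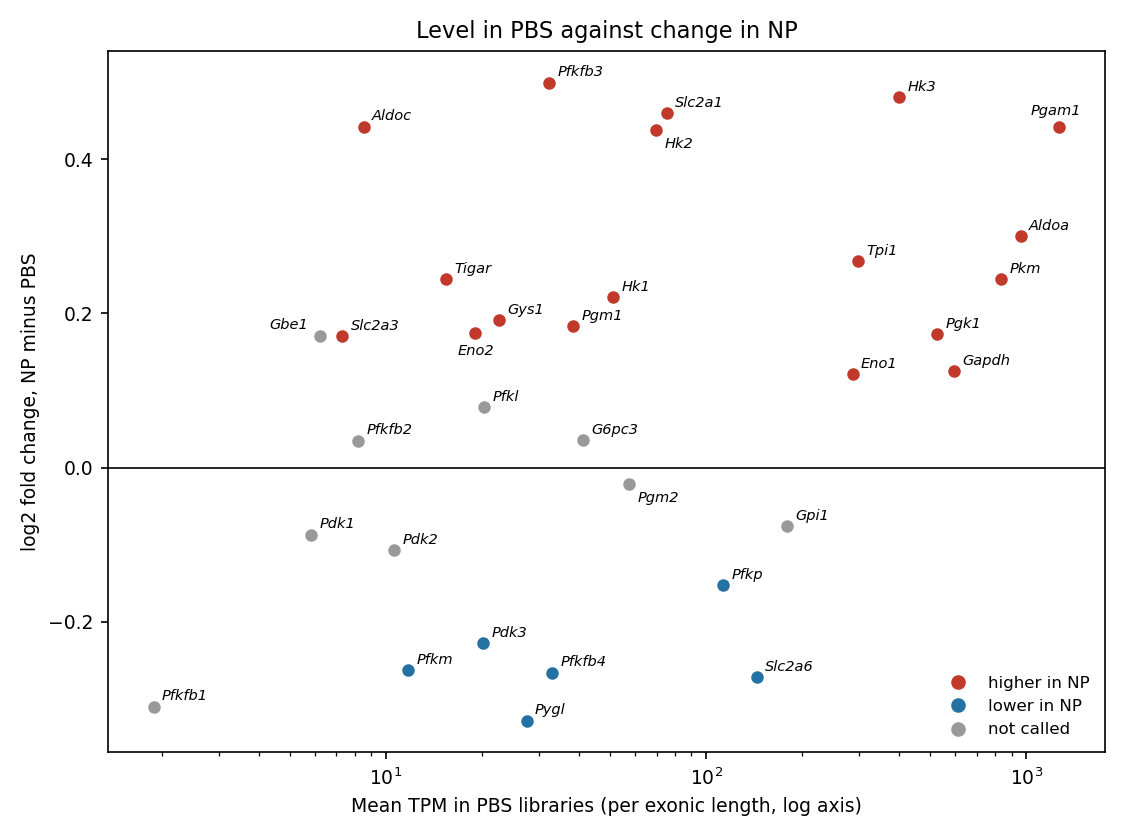
Log2 fold change of each of the 33 genes (NP minus PBS, limma voom) against its mean TPM in the PBS libraries (log axis, per exonic length), coloured by call. The 8 genes above 200 TPM in PBS are all higher in NP, and the 6 lower genes lie between 11.7 and 144 TPM.

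Among the 19 isoform contrasts, the groups were apart in 13 and overlapped in 6. Many of these contrasts share a gene, so they are not separate results, and the smallest adjusted p of the exact permutation test was 0.146. For single genes, the groups were apart in 53.3% of all tested genes, and no such share was computed for ratios of other genes. By position, chromosome 6 held the most members, 6 (Slc2a3, Hk2, Eno2, Tpi1, Gapdh and Tigar), all higher in NP, and 5 of them lay within 4.38 Mb. Eno2 and Tpi1 are 40.9 kb apart. On the whole chromosome 21.3% of 737 tested genes were higher, and in the 4.38 Mb 20 of 62 tested genes (32.3%) were higher and 15 were lower.

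Beyond the 33 genes, 99 further genes of the surrounding pathways were looked up, of which 75 passed the filter on low counts. In NP 19 (25.3%) were higher, 15 (20.0%) were lower and 41 were not called. These shares lie near those of all tested genes (19.8% higher and 21.4% lower) and of genes of at least 10 CPM (26.5% and 25.4%). Of the pyruvate and lactate genes 6 of 12 were higher and the other 6 were not called. Ldha, the lactate dehydrogenase subunit that favours lactate formation, had 599.0 ± 25.1 CPM in NP and 487.6 ± 4.0 CPM in PBS (limma voom adjusted p = 0.000217). Slc16a1 and Slc16a3, the lactate carriers MCT1 and MCT4, averaged 35.39 ± 2.4 and 41.93 ± 2.69 CPM in NP libraries, against 25.85 ± 0.885 and 32.66 ± 0.464 CPM in PBS libraries (limma voom adjusted p = 0.000242 and 0.000486). In each of the 3 genes all NP libraries were above all PBS libraries.

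The further glycogen genes were mixed, with 6 of 19 higher (31.6%) and 5 lower (26.3%), near the shares among genes of at least 10 CPM. Among the higher ones, Ugp2, which makes the UDP-glucose used by glycogen synthase, had 194.8 ± 11.4 CPM in NP and 154.5 ± 3.83 CPM in PBS. Gaa, the lysosomal glucosidase that degrades glycogen, had 144.9 ± 9.44 CPM in NP and 111.6 ± 6.15 CPM in PBS. Nhlrc1, the ubiquitin ligase malin, had 4.838 ± 0.298 CPM in NP and 3.622 ± 0.09 CPM in PBS. The lower ones were led by subunits of phosphorylase kinase, which activates the phosphorylases: Phkg2 had 19.64 ± 0.767 CPM in NP and 24.26 ± 0.138 CPM in PBS, Phka2 had 42.11 ± 2.06 CPM in NP and 53.37 ± 3.27 CPM in PBS; Phka1 had 8.821 ± 0.273 CPM in NP and 11.06 ± 0.0671 CPM in PBS. The limma voom adjusted p of these 6 genes ran from 0.000352 (Ugp2) to 0.00519 (Nhlrc1). The phosphorylase genes other than Pygl, named after their values were seen, went opposite ways. Pygb, the brain form, was lower, with 70.69, 75.91 and 73.09 CPM in NP, against 81.68, 81.24 and 83.22 CPM in PBS (log2 fold change -0.16 ± 0.035, limma voom adjusted p = 0.0046). Pygm, the muscle form, was higher at a far lower level, with 1.088, 1.027 and 1.406 CPM in NP, against 0.6497, 0.7268 and 0.6818 CPM in PBS (log2 fold change 0.75 ± 0.197, limma voom adjusted p = 0.013).

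Among the remaining lists, the glycolysis genes outside the 33 (Pgam2 and Eno3, muscle isozymes, and Bpgm, Adpgk, Pgp and Galm, other enzymes around the pathway) gave 0 calls of 6 tested by limma voom or limma-trend, and 0 had an unadjusted p under 0.05. Both carriers tested were lower: Slc2a9, a urate carrier, had 14.66 ± 0.533 CPM in NP and 19.84 ± 0.857 CPM in PBS. Slc2a8 had 9.402 ± 0.0977 CPM in NP and 11.65 ± 0.712 CPM in PBS. Gluconeogenesis gave 2 lower and 2 not called of 4, Pck2 (mitochondrial PEP carboxykinase, 70.83 ± 1.26 CPM in NP and 91.6 ± 1.92 CPM in PBS libraries) and Pcx (pyruvate carboxylase, 6.147 ± 0.267 CPM in NP and 7.171 ± 0.305 CPM in PBS). These lists of 2 and 4 tested genes are too small for a share to be read. The pentose phosphate pathway gave 2 higher (22.2%), Taldo1 and Pgd, and 1 lower (11.1%), Pgls, of 9. Hexose side paths gave 3 higher, Gfpt1, Pmm2 and Galt, and 3 lower, among them Akr1b3 and Khk, of 12. Gfpt1, which opens the hexosamine pathway, was the furthest from its PBS level there, with 327.8, 270.8 and 301.6 CPM in NP, against 180.3, 189.4 and 202.7 CPM in PBS (log2 fold change 0.65 ± 0.067, limma voom adjusted p = 9.49e-05).

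Regulators of glucose genes gave 2 higher, 2 lower and 7 not called of 11, so that 18.2% were called each way, about as among all tested genes. Arrdc4, an arrestin-domain protein and relative of Txnip that lowers glucose uptake, had 30.01, 26.94 and 27.8 CPM in NP, against 16.63, 17.61 and 17.59 CPM in PBS (log2 fold change 0.71 ± 0.056, limma voom adjusted p = 2.73e-05). Mlx, the partner of the glucose-sensing factors MondoA and ChREBP, had 42.92 ± 1.16 CPM in NP and 35.21 ± 1.22 CPM in PBS (limma voom adjusted p = 0.000494). Epas1 (HIF-2α) and Egln1, the prolyl hydroxylase that marks HIF proteins for degradation, were lower, with 28.44 ± 1.32 and 58.94 ± 2.37 CPM in NP and 31.6 ± 1.09 and 63.53 ± 0.545 CPM in PBS (limma voom adjusted p = 0.0276 and 0.0398). Txnip and Hif1a were among the genes not called (limma voom adjusted p = 0.0892 and 0.271). Txnip had 199.2 ± 13.1 CPM in NP and 215.5 ± 7.92 CPM in PBS. Hif1a had 125.5 ± 4.08 CPM in NP and 121.2 ± 1.74 CPM in PBS.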

How the data were processed

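Per the labels' protocols, poly(A) RNA of 6 libraries was read as pairs of 151 bp. The values deposited by the authors are expected counts per gene. The tools listed in the submitters' processing notes, without their roles, are RSEM 1.3.3, STAR 2.7.8a, cutadapt 2.3, MultiQC 1.7 and FastQC 0.11.8, with GRCm38 as build. Neither the annotation release nor the strand setting is given there, so antisense and overlapping genes cannot be separated. The deposited values were whole numbers, and RSEM divides reads that match several genes. Of 55491 rows, 4 reporter constructs with 0 counts were left out, and 55227 of 55487 gene rows matched GENCODE M21 (GRCm38), the source of coordinates and exonic lengths.

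The unit of the table could not be read by the automatic check, owing to its quoted layout, so edgeR and DESeq2 were not run. limma voom (limma 3.58.1, R 4.3.3) was fitted on the group alone to 14478 genes. These had at least 0.171 CPM, or 10 counts in a library of median depth, in 3 or more libraries and 15 counts in total. TMM factors were 0.979 to 1.02, 0.5 was added to each count, 4 residual degrees of freedom remained, and adjustment (Benjamini-Hochberg) was over all genes. Intervals are at 95%. The variance of each gene was moderated toward that of all tested genes. The SE, p-values and intervals of the fold changes use this moderated variance, with more degrees of freedom than the 4 residual ones. CPM uses TMM-scaled library sizes, and TPM the count per exonic length. Isoform ratios were tested by exact two-sided permutation over the 6 libraries. All 33 genes are named, and of other lists the called genes of smallest p, at most 3 a direction, apart from items not reported here. The members, lists and tests were chosen with earlier results of these data known. The voom fit was run on simulated counts as a check of the code. Far fewer genes were changed there than were called here, and the same spread was set for all genes. No result here rests on that check. The chi-square per gene of libraries within a group was 4.92 to 19.6, so none was a second reading of another library. Whether they came from separate cultures or mice cannot be read from it. Counting limits cover counting error only.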

Additional observations from a re-analysis of the deposited data

How the results depend on the processing

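Of the 24 glucose genes called, 12 stayed called under all 17 alternatives (Slc2a1, Hk1, Hk2, Hk3, Pfkp, Pfkfb3, Pfkfb4, Aldoa, Tpi1, Pgam1, Gys1 and Pygl) and 12 lost the call under at least 1. With PBS 1 alone for PBS, 2972 genes were called (1197 higher and 1775 lower in NP), among them 14 glucose genes, 9 of them higher. This fit has fewer samples, and the lone library is assumed to vary like the NP libraries. Leaving out 1 library each gave 1975 to 3850 genes lower in NP and 17 to 23 glucose genes called. Signs reversed only in results that were not called, and the cause was not tested. The log2 fold change of Pfkfb2 was 0.00 with library totals alone and 0.00 to 0.09 on leaving out 1 library each. Likewise it ran from -0.04 to 0.01 for Pgm2, from -0.14 to 0.02 for Pdk1 and from -0.41 to 0.16 for the second Aldoa row, which was 0.10 with sample quality weights. Pfkl was 0.00 with PBS 1 alone for PBS and -0.05 without PBS 2 and NP 2, whose library numbers in the labels, 13 and 12, lie apart from the others (4 to 8). The log2 ratio difference of Eno2 to Eno1 was -0.01 with PBS 1 alone, that of Hk3 to Hk2 was -0.02 without PBS 2 and NP 2, and that of Pdk1 to Pdk2 was -0.04 there and -0.02 to 0.10 on leaving out 1 library each. With the replicate block 23 glucose genes were called, 17 higher and 6 lower, of 5022 genes in all, and it changed no member's call other than that of Slc2a3. Libraries of the same number did not deviate together (correlations -0.255, -0.313 and -0.2), so the numbers were not taken to pair the samples. Library totals alone moved the median of all genes by -0.034 (log2). limma-trend called 5964 genes, as many as voom, of which 5891 were shared. Adding 5 counts reversed no isoform ratio. Per longest transcript the NP shares were 74.3% Hk3, 13.9% Hk1, 11.9% Hk2, 42.5% Slc2a1, 53.9% Slc2a6, 18.5% Pfkl and 5.51% Pfkm. edgeR's quasi-likelihood test and DESeq2 were listed as alternatives and were not run. With 3 libraries a group the exact tests cannot go below 0.1, so isoform ratios cannot pass the threshold at this size.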
